A study of Mus musculus with 3 samples.

Results

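The glycolytic enzymes of fast muscle were described in RNA sequencing data of mouse gastrocnemius and plantaris. The set held 10 of the 42258 genes in the tables, chosen by symbol: Hk2, Gpi1, Pfkm, Aldoa, Tpi1, Gapdh, Pgk1, Pgam2, Eno3 and Ldha. All 10 passed the filter that kept 12966 genes whose mean over the libraries was 1 CPM (counts per 1000000 counts) or more. The study asked how muscle of old mice differs from that of young mice and from that of old mice whose diet held EPA (the omega-3 fatty acid eicosapentaenoic acid). All mice were male, and total RNA was pooled by group, so that each of the 3 groups was 1 library without a replicate. The young library held RNA of 3 mice aged 24 weeks, labelled C57BL/7J, whose diet is not given. The aged control library held RNA of 6 C57BL/6J mice aged 87 weeks, kept without dietary EPA for the last 12 weeks, from 75 weeks of age. The aged EPA library held RNA of 6 C57BL/6J mice of the same age whose diet contained 1 wt% EPA over those 12 weeks. Age was therefore joined with strain label, number of mice and possibly diet in every comparison with young, and these cannot be told apart.

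Glycolysis splits glucose into pyruvate in the cytosol and yields ATP without oxygen. In its preparatory phase hexokinase, glucose-6-phosphate isomerase, phosphofructokinase, aldolase and triose phosphate isomerase spend ATP to make triose phosphates. In its payoff phase glyceraldehyde-3-phosphate dehydrogenase, phosphoglycerate kinase, phosphoglycerate mutase, enolase and pyruvate kinase recover ATP, and lactate dehydrogenase turns pyruvate into lactate. Fast-twitch fibres, which make up most of the mouse gastrocnemius and plantaris, depend on this pathway during short, intense work and use muscle isoforms for several of its steps, among them Pfkm, Pgam2 and Eno3.

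The libraries gave 57386394, 57622886 and 55969822 counts for young, aged control and aged EPA. With 1 library per group, no difference could be tested, and each is given by its size. Gene positions are those of GENCODE M21 on build GRCm38. Intervals in brackets are exact 95% Clopper-Pearson intervals of a ratio or share of counts and cover counting error only, not the spread between mice or preparations. Fast fibre markers were abundant, as the labelled muscles imply: their 12 genes, with none at 0, summed to 100223 CPM in young, 110731 in aged control and 112436 in aged EPA. The 9 slow fibre markers, with none at 0, summed to 708, 1118 and 922 CPM. In this bulk RNA, fewer cells of a type and less RNA per cell cannot be told apart.

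The change of a gene is given as the log2 ratio of CPM + 1, which understates changes of low genes, strongly so near 1 CPM. For Slc25a13, with a mean of 1.00 CPM, the change of aged control over young was 0.83 on this scale. From counts over each library's own total it was 1.79. A gene was counted as higher when the ratio of CPM + 1 was at least 25% above 1. It was counted as lower when that ratio was at least 20% below 1, which is the same distance on the log scale. By this threshold 9 of the 10 enzymes lay within the limits in each of the 3 comparisons, and Gapdh alone lay beyond them. Comparing aged control to young, 0 members were higher and 1 was lower, against 9.13% and 10.4% of all 12966 genes. Comparing aged EPA to aged control, 0 members were higher and 1 was lower, against 5.38% and 7.38% of all genes. Comparing aged EPA to young, 0 were higher and 1 was lower, against 7.43% and 11.7%. The member counts were thus near the share found in all genes. All 10 members belong to the 1079 genes with a mean of 100 CPM or more, of which 15.3%, 5.56% and 13.3% lay beyond the threshold in either direction in these comparisons. The median log2 change of the members was -0.00037 for aged control over young, 0.0083 for aged EPA over aged control and -0.039 for aged EPA over young. The medians over all genes compared were -0.013, -0.025 and -0.037. The comparisons share libraries and are not independent of each other.

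**Figure D1:**
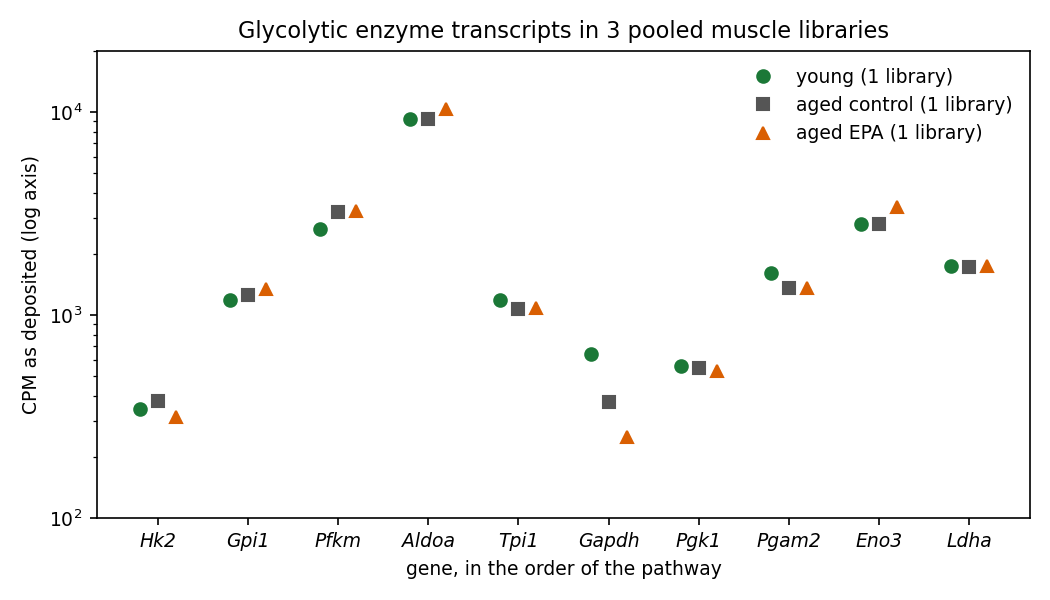
Deposited CPM of the 10 enzymes, in pathway order, on a log axis, with 1 point per library (circles young, squares aged control, triangles aged EPA). Aldoa is highest in CPM in each library, and Gapdh is the enzyme whose points are spread widest, from 642 to 251 CPM.

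The summed level of the 10 transcripts was 21934.5 CPM in young, 21963.9 in aged control and 23599.8 in aged EPA, or 2.16%, 2.18% and 2.39% of all counts. The log2 ratio of these sums was 0.0019 for aged control over young and 0.10 for aged EPA over aged control. The 5 enzymes of the preparatory phase summed to 14586.0, 15141 and 16312 CPM. The 4 payoff enzymes other than Gapdh summed to 6706, 6451 and 7037 CPM. Both sums were thus highest in aged EPA, while in aged control the preparatory sum was higher than in young and the payoff sum lower. Aldoa alone held 9214, 9241 and 10340.4 CPM and made up most of the preparatory sum.

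Hexokinase 2, encoded by Hk2 (ENSMUSG00000000628, chr6:82725025-82774454, minus strand), phosphorylates glucose as it enters the fibre and is the insulin-responsive hexokinase of muscle. Its level was 345 CPM in young, 376 in aged control and 315 in aged EPA. It was the only member that was highest in aged control. Its log2 change was 0.13 between aged control and young and -0.26 between aged EPA and aged control. With the trend of all genes with transcript length subtracted, the first value was 0.07. From counts over each library's own total, the second value was -0.19 (-0.21 to -0.16).

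Glucose-6-phosphate isomerase, encoded by Gpi1 (ENSMUSG00000036427, chr7:34201330-34230336, minus strand), makes fructose-6-phosphate. Its transcript stood at 1188 CPM in young, 1251 in aged control and 1340.0 in aged EPA. The order was young, aged control, aged EPA, with log2 changes of 0.07 and 0.10 between neighbours. From counts over each library's own total these were 0.08 (0.07 to 0.10) and 0.17 (0.16 to 0.18). An annotated gene on the opposite strand, Gm26762, overlaps part of its exons, and whether the counting used strand is not given in the sources used here.

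Phosphofructokinase of muscle, encoded by Pfkm (ENSMUSG00000033065, chr15:98092589-98132451, plus strand), catalyses the committed step of the pathway. Pfkm was at 2662 CPM in young, 3208 in aged control and 3234 in aged EPA. The young library was the low one, and the aged libraries differed by a log2 change of 0.01 in deposited CPM and of 0.08 (0.07 to 0.09) from counts over each library's own total. Against young the log2 change was 0.27 in aged control and 0.28 in aged EPA. The count ratio of aged control to young was 0.23 on the log2 scale (0.22 to 0.24), the highest of the 10 members in that comparison.

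Aldolase A, encoded by Aldoa (ENSMUSG00000030695, chr7:126795234-126800751, minus strand), cleaves fructose bisphosphate into triose phosphates. Aldoa was the most abundant member, with nearly equal values in young and aged control and a log2 change of 0.16 in aged EPA against aged control. Per kb of its 1549-base transcript it stood at 5949 CPM in young, 5966 in aged control and 6676 in aged EPA, first of the 10 in each library. Triose phosphate isomerase, encoded by Tpi1 (ENSMUSG00000023456, chr6:124810586-124814296, minus strand), interconverts the triose phosphates. Tpi1 was at 1177 CPM in young, 1065 in aged control and 1082 in aged EPA. It was lower in both aged libraries, with log2 changes of -0.14 and -0.12 against young, and of -0.08 and -0.07 once the trend of all genes with transcript length was subtracted.

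Phosphoglycerate kinase 1, encoded by Pgk1 (ENSMUSG00000062070, chrX:106187100-106203699, plus strand), makes the first ATP of the payoff phase. Pgk1 was at 559 CPM in young, 549 in aged control and 531 in aged EPA. In deposited CPM its log2 change was -0.03 for aged control over young and -0.08 for aged EPA over young. From counts over each library's own total these were -0.07 and -0.05, so which aged library was lowest depended on the scaling. Muscle phosphoglycerate mutase, encoded by Pgam2 (ENSMUSG00000020475, chr11:5801640-5803733, minus strand), moves the phosphate group before the enolase step. Pgam2 stood at 1607 CPM in young, 1355 in aged control and 1359.9 in aged EPA. Both aged libraries lay below young, by log2 changes of -0.25 and -0.24. The deposited values of the aged libraries were nearly equal, while from counts over each library's own total aged EPA was above aged control by 0.08 in log2 units (0.06 to 0.09). Pgam2 has the shortest transcript of the 10 (840 bases), and with the length trend subtracted its change against young was -0.09 in aged control and -0.12 in aged EPA.

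Muscle enolase, encoded by Eno3 (ENSMUSG00000060600, chr11:70657202-70662513, plus strand), makes phosphoenolpyruvate. Eno3 was at 2805 CPM in young, 2818 in aged control and 3415 in aged EPA. Here the aged EPA library stood apart and the others were level. The log2 change was 0.01 between aged control and young and 0.28 between aged EPA and aged control. From counts the second value was 0.29 (0.28 to 0.30), the highest of the 10 in that comparison. Lactate dehydrogenase A, encoded by Ldha (ENSMUSG00000063229, chr7:46841475-46855627, plus strand), regenerates NAD by making lactate. Ldha stood at 1736 CPM in young, 1729.8 in aged control and 1732 in aged EPA, a highest-to-lowest ratio of 1.003. Of the 1079 genes with a mean of 100 CPM or more, 0% had a smaller ratio over the 3 libraries on this scale. Scaled to each library's own total, Ldha was at 1695 CPM in young, 1698 in aged control and 1785 in aged EPA. On that scale aged EPA was the high library, by 0.07 over aged control in log2 units (0.06 to 0.09), so the near equality of the deposited values rests on their divisors.

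**Figure D2:**
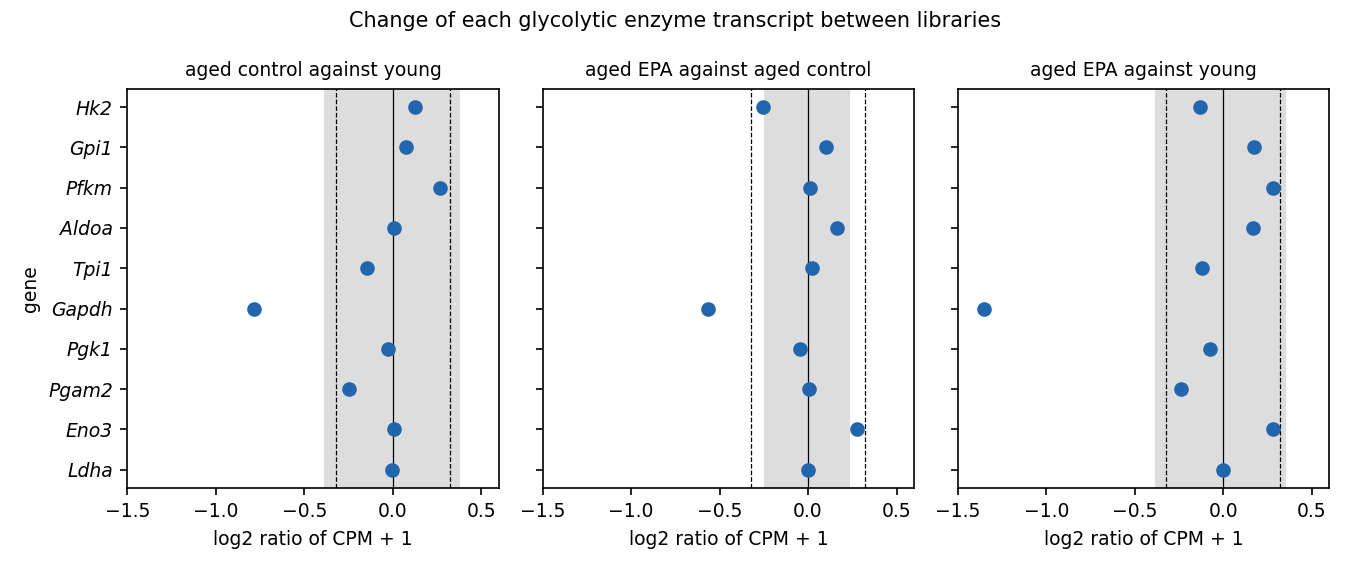
Log2 change of CPM + 1 for each enzyme in the 3 comparisons, 1 panel each. Dashed lines mark the threshold (25% higher or 20% lower). The grey band holds the middle 90% of the 1079 genes with a mean of 100 CPM or more. The points of 9 enzymes lie between the dashed lines, and those of Gapdh lie at -0.79, -0.57 and -1.35.

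Divided by transcript length, the levels followed another order than in CPM. After Aldoa came Pgam2, at 1913 CPM per kb in young, 1613 in aged control and 1619 in aged EPA, together with Eno3, at 1793, 1802 and 2183. Pgam2 was above Eno3 in young and below it in both aged libraries. Ldha (956, 953 and 954 CPM per kb) was likewise above Pfkm (925, 1114 and 1123) in young and below it in both aged libraries. Tpi1, Gpi1 and Pgk1 lay between 291 and 733 CPM per kb. Hk2, with a transcript of 5513 bases, was last at 62.5, 68.2 and 57.2 CPM per kb. Lengths are those of 1 GENCODE M21 transcript per gene, so values per kb also rest on that choice.

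Pyruvate kinase, the remaining step, is outside the set of 10. Its muscle gene Pkm was at 2329 CPM in young, 2469.8 in aged control and 2676 in aged EPA, with log2 changes of 0.08 and 0.12 between neighbours. The liver and red cell gene Pklr was at 0 CPM in all 3 libraries.

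Glyceraldehyde-3-phosphate dehydrogenase, encoded by Gapdh (ENSMUSG00000057666, chr6:125161715-125166467, minus strand), makes the NADH of glycolysis and is widely used as a reference gene for expression. The Gapdh row held 642 CPM in young, 372 in aged control and 251 in aged EPA, from 36316, 21455 and 14162 counts. The log2 change was -0.79 for aged control over young, -0.57 for aged EPA over aged control and -1.35 for aged EPA over young. The count ratio for the last comparison was -1.32 on the log2 scale (-1.35 to -1.29). The highest value was 2.56 times the lowest, and 98.7% of the genes at 100 CPM or more on average had a smaller ratio. Its neighbours in the pathway, Tpi1 and Pgk1, stayed within the threshold.

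The mouse genome holds many processed pseudogenes of Gapdh, copies of its spliced mRNA. A search of the GENCODE M21 transcripts (at least 90% identity over at least 300 bases, same strand) found 152 such copies, of which 138 had a row in the tables and 53 a mean of 1 CPM or more. Of all 100-base windows of the Gapdh transcript, 78.0% (1031 of 1321) occurred without a difference in at least 1 other gene. For Pgk1 that share was 67.0%, shared with 3 other genes. It was 4.92% for Gpi1, 1.28% for Ldha and 0.796% for Tpi1, and 0% for Hk2, Pfkm, Aldoa, Pgam2 and Eno3. With windows of 150 bases the share was 74.0% for Gapdh, 66.1% for Pgk1 and 0% for the other 8. A read inside such a window cannot be placed by its sequence alone, and how the authors counted reads with several places is not given in the sources used here.

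**Figure D3:**
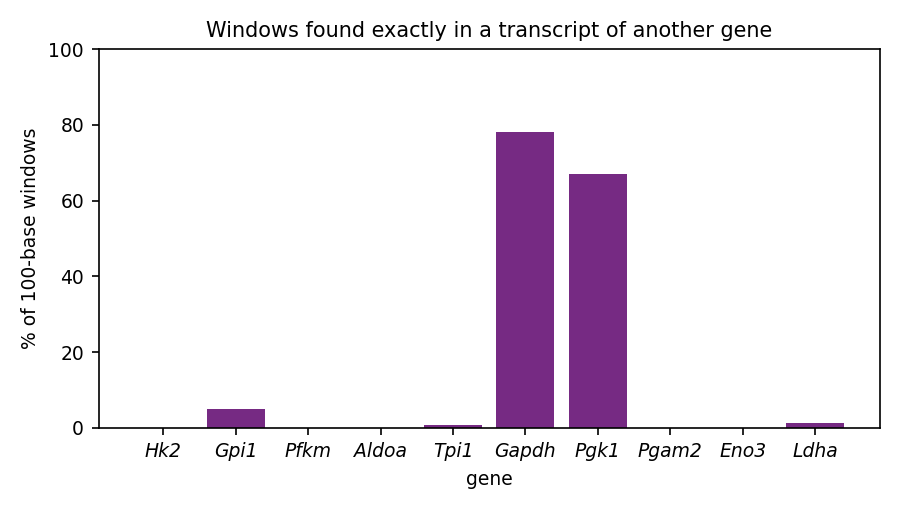
Share of the 100-base windows of each enzyme's transcript, in percent, that occur exactly in a transcript of at least 1 other gene. Gapdh (78.0%) and Pgk1 (67.0%) stand apart from the other 8 enzymes.

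To show how alike the copies are, a 90-base stretch of a coding exon of Gapdh, at chr6:125162951-125163040 on the minus strand (GRCm38), is printed 5′ to 3′. Within coding exons, it was chosen as a stretch where the printed copies differ from Gapdh at the most positions. Beside it is the same stretch of the 4 copies most abundant in young. They lie at chr7:51747018-51747107 (Gm7336), chr5:95862035-95862124 (Gm5559), chr11:26786954-26787043 (Gm12070) and chr15:12575210-12575299 (Gm2606), each on the plus strand. Capitals mark bases that differ from Gapdh.
Gapdh: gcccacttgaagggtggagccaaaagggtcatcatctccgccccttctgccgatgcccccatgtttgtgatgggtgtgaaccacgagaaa
Gm7336: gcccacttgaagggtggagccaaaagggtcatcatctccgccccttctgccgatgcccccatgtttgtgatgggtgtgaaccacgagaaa
Gm5559: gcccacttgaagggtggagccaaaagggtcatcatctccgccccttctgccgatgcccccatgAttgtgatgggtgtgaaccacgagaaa
Gm12070: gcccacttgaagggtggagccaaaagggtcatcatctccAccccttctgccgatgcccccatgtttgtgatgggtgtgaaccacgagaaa
Gm2606: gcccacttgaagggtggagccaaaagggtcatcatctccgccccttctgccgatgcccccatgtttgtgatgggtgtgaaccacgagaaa
Over this stretch Gm7336 and Gm2606 had 0 differences, and Gm5559 and Gm12070 had 1 each. Over its whole aligned length of 1232 bases Gm7336 was 99.8% identical to the Gapdh transcript.

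The counts assigned to the family lay mostly on the copies. Gm7336 held 1009.5 CPM in young, 992 in aged control and 1067 in aged EPA, more than the Gapdh row in each library. Gm5559 was at 768, 732 and 891 CPM, Gm12070 at 761, 702 and 778, and Gm2606 at 494, 478 and 501. The Gapdh row was exceeded by 3 copies in young, 5 in aged control and 10 in aged EPA. It held 10.2% (10.1 to 10.3) of the family's counts in young, 6.56% (6.47 to 6.64) in aged control and 3.92% (3.86 to 3.98) in aged EPA, with intervals for counting error only.

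The 138 copies together held 5631 CPM in young, 5376 in aged control and 6115 in aged EPA. From counts over each library's own total, the copies' log2 change was -0.07 for aged control over young and 0.23 for aged EPA over aged control. Gene and copies summed to 6273, 5748 and 6365 CPM. With the copies added, the log2 change of Gapdh was -0.13 for aged control over young, 0.15 for aged EPA over aged control and 0.02 for aged EPA over young. The sign of the Gapdh change thus turned in both comparisons of aged EPA when the copies were counted with it, and no member then lay beyond the threshold in any comparison. The cause of the difference between row and family was not tested.

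Of the 26 copies with a mean of 10 CPM or more, aged control was below young in 20 and above it in 6, with log2 changes from -0.28 to 0.11 and a median of -0.05. Aged EPA was above aged control in 24 and below it in 2, with changes from -0.02 to 0.45 and a median of 0.14. By the threshold, 0 of the 26 were lower in any of the 3 comparisons, while 3 were higher in aged EPA against aged control and 1 in aged EPA against young. Shares over all genes were 5.38% higher and 7.38% lower between the aged libraries, and 7.43% and 11.7% in aged EPA against young. In aged control against young 10.4% of all genes were lower. Copies share sequence with each other, so that their values are not independent. The 2 copies of Pgk1 in the tables held 85.8, 78.8 and 82.1 CPM in sum, and Pgk1 with its copies stood at 645, 627 and 613 CPM.

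**Figure D4:**
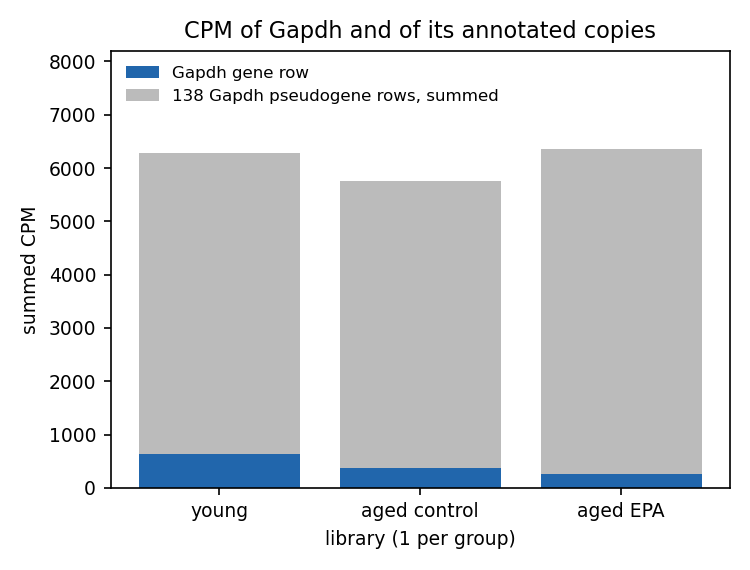
CPM of the Gapdh row (blue) stacked under the sum of its pseudogene rows (grey), 1 bar per library. The gene row is the smaller share in each library (642, 372 and 251 CPM of 6273, 5748 and 6365 CPM).

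Isoform shares were calculated for the hexokinase, phosphofructokinase, mutase, enolase and lactate dehydrogenase steps. The share of Hk2 in the hexokinases, per kb, was 89.2% in young, 90.5% in aged control and 89.8% in aged EPA. Pfkm and Pgam2 each held 99.5% of their families in every library, and Eno3 held 98.1%, 98.2% and 98.5% of the enolases. Ldha held 84.3%, 84.4% and 85.3% of the lactate dehydrogenases, the rest being mostly Ldhb, the form of heart and oxidative fibres, at 233, 230.3 and 214 CPM. Of 19 other isozymes, 10 had a mean of 1 CPM or more. Between the aged libraries 0 of these 10 lay beyond the threshold, against 12.8% of all genes. Of 3 retrogenes of the members, 2 had a mean of 1 CPM or more. By the threshold 1 of these (Aldoart1) was lower in aged EPA against aged control, against 7.38% of all genes. Aldoart1 lay near the filter, with 100 counts in aged control and 64 in aged EPA. The other, Pgk1-rs7, is also among the copies of Pgk1 given above.

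Among regulators of the phosphofructokinase step, Pfkfb3 stood apart in aged EPA. Its product makes the regulatory sugar phosphate that activates phosphofructokinase. Pfkfb3 was at 42.1 CPM in young, 61.7 in aged control and 152 in aged EPA. Its log2 change was 0.54 between aged control and young and 1.29 between aged EPA and aged control. The second count ratio was 1.37 on the log2 scale (1.32 to 1.43), from 3489 and 8771 counts. At least 2-fold higher values in that comparison were found for 0.694% of all genes. Fbp2, the muscle fructose bisphosphatase that works against phosphofructokinase, was at 41.9, 27.1 and 32.9 CPM, lowest in aged control. Of the 8 regulators compared, 1 was higher (Pfkfb3) and 2 lower (Pfkfb2 and Fbp2) in aged control by the threshold against young. Between the aged libraries 1 was higher in aged EPA (Pfkfb3) and 0 lower. Shares over all genes were 9.13% higher and 10.4% lower in aged control against young, and 5.38% and 7.38% between the aged libraries.

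Lactate leaves fibres through monocarboxylate transporters. Slc16a3, the exporter of glycolytic fibres, was at 330 CPM in young, 251 in aged control and 284 in aged EPA, with log2 changes of -0.40 and 0.18. Bsg, the membrane protein basigin that brings these transporters to the surface, was at 331, 291 and 468 CPM and so was highest in aged EPA, with a log2 change of 0.68 against aged control (0.75 from counts, 0.73 to 0.78). Of the 6 lactate and pyruvate transport genes compared, 1 was higher (Emb) and 1 lower (Slc16a3) in aged control by the threshold against young. Between the aged libraries 1 was higher in aged EPA (Bsg) and 0 lower. Shares over all genes were 9.13% higher and 10.4% lower in aged control against young, and 5.38% and 7.38% between the aged libraries.

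Among 9 genes of glucose entry and branch points, 2 passed the threshold as higher in aged control against young and 0 as lower. They were Slc2a3, a glucose transporter with 10.9, 16.3 and 19.6 CPM, and Gfpt2 of the hexosamine branch with 20.4, 31.7 and 25.9 CPM. Between the aged libraries 0 of the 9 were higher in aged EPA and 1 lower (Pgm2). Shares over all genes were 9.13% higher and 10.4% lower in aged control against young, and 5.38% and 7.38% between the aged libraries. Of 10 genes of the shuttles that reoxidise NADH, 9 lay within the threshold in each comparison. The exception was Slc25a13, with 25, 87 and 59 counts. Gpd1, which links glycolysis to the glycerol phosphate shuttle, was at 490 CPM in young, 541 in aged control and 561 in aged EPA.

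**Figure D5:**
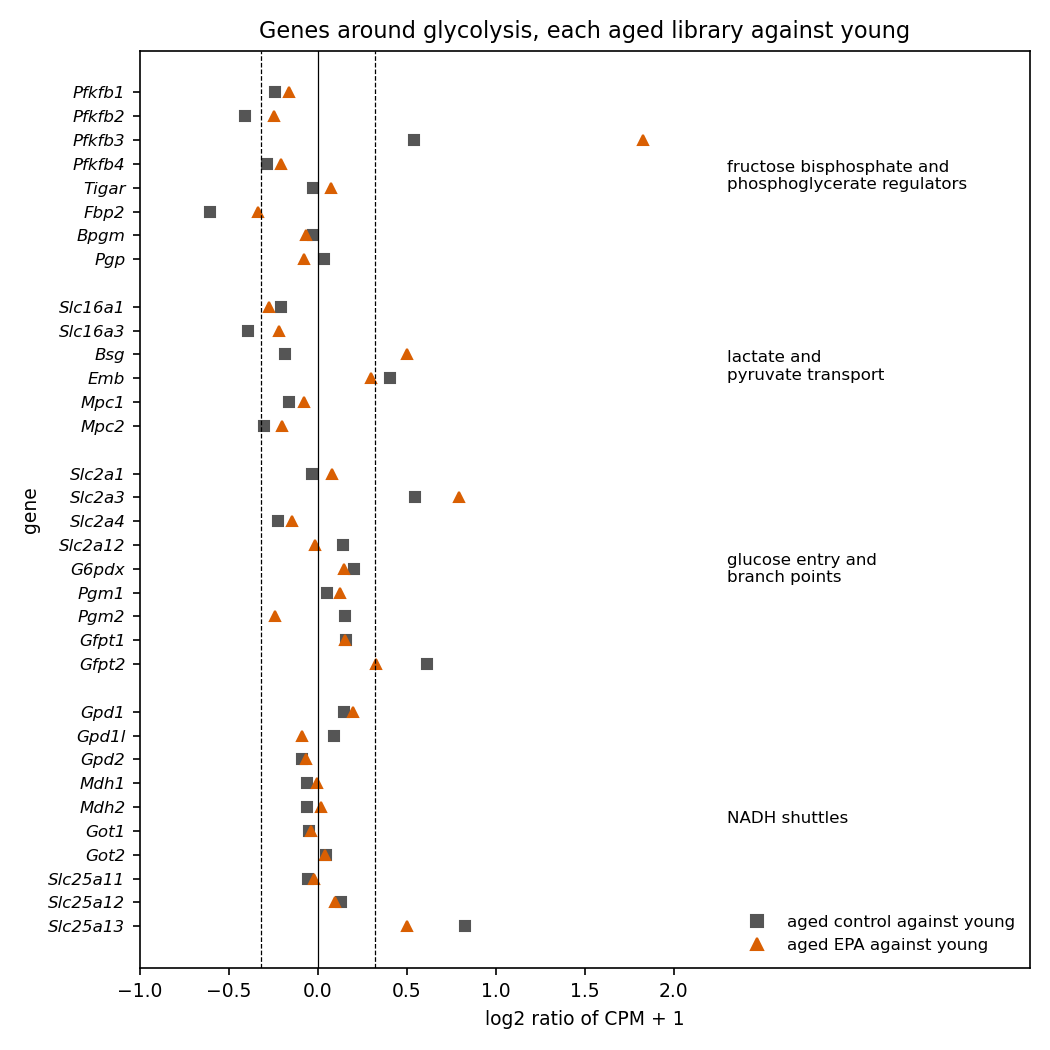
Log2 change of CPM + 1 against young for genes around the glycolytic enzymes, grouped by list, in aged control (squares) and aged EPA (triangles), with dashed lines at the threshold. The triangle of Pfkfb3 lies farthest to the right (1.83), and that of Bsg lies at 0.50 where its square lies at -0.18.

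Transcription factors linked to glycolytic or fast fibre genes mostly lay within the threshold. Of 19, 1 (Mef2c) was higher and 3 (Arnt, Esrrg and Mlx) lower in aged control by the threshold against young. Arnt, the partner of hypoxia-inducible factor, was at 47.7 CPM in young, 28.2 in aged control and 28.9 in aged EPA. Mlx, which pairs with glucose-sensing factors, was at 12.5, 5.76 and 9.57 CPM. Between the aged libraries 2 were higher in aged EPA (Mlx and Nr4a3) and 0 lower. Shares over all genes were 9.13% higher and 10.4% lower in aged control against young, and 5.38% and 7.38% between the aged libraries. Of 14 other genes known to respond to hypoxia-inducible factor, 1 was higher (Ddit4) and 1 lower (Egln3) in aged control against young, with Egln3 at 88.6, 56.8 and 49.97 CPM. Between the aged libraries 0 passed the threshold as higher in aged EPA and 1 as lower (Ddit4, at 38.2, 51.3 and 31.6 CPM). By any amount, in deposited CPM, 4 of the 14 were above aged control and 10 below, while 44.2% of all 12966 genes were above. This split depended on the scaling. From counts over each library's own total, Egln1 (0.03) and P4ha2 (0.05) turned from below to above. The median over all genes moved from -0.025 to 0.013 on that scale.

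Hypoxia-inducible factor binds DNA around a short core, of which ACGTG is a common form. Other forms of the core were not counted, so a promoter with 0 matches may still hold such a form. In RefSeq promoters (250 bases before the start site, GRCm38.p6, both strands, overlapping matches counted), 5 of the 10 members held ACGTG at 1 start site or more: Hk2, Pfkm, Aldoa, Pgk1 and Ldha. Of all 27025 genes with a RefSeq start site 18.5% did. By start site the shares were 7 of 16 for the members and 16.6% for all. Printed as the extremes of the set are the Ldha promoter with the most matches (5 matches at 3 places, at chr7:46845554-46845803, plus strand) and that of Eno3 with 0 (chr11:70656926-70657175, plus strand). Capitals mark ACGTG or its reverse complement CACGT.
Ldha: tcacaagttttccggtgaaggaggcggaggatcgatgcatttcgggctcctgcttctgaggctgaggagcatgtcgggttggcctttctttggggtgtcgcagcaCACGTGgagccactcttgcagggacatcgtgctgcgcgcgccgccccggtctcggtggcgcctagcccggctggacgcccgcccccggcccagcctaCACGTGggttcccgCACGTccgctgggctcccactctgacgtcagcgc
Eno3: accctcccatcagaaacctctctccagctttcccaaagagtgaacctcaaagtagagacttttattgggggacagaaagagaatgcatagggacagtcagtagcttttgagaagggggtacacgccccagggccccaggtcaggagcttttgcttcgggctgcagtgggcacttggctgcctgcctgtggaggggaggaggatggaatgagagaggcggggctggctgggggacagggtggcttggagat
A match is a description of the sequence only, and matches were not compared with the values of the members.

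Of 9 slow fibre genes, 7 were higher and 0 lower in aged control by the threshold against young, with a median log2 change of 0.64. Between the aged libraries 0 were higher in aged EPA and 4 lower, with a median of -0.28. Of 12 fast fibre genes, 3 (Myh4, Myh1 and Myh2) were higher and 0 lower in aged control by the threshold against young. By any amount, 7 of the 12 were above young and 5 below. The 3 named have transcripts of 6016 to 6083 bases. Over all genes, the change in that comparison rose with transcript length (rank correlation 0.29), and the part of length here was not tested. Between the aged libraries 0 of the 12 were higher in aged EPA and 1 lower (Myh2). Shares over all genes were 9.13% higher and 10.4% lower in aged control against young, and 5.38% and 7.38% between the aged libraries. The 6 red blood cell markers summed to 1509, 561 and 566 CPM, with Slc4a1 at 0 in aged control, and 5 of the 5 compared were lower in both aged libraries than in young. The markers of adipocytes, endothelium, smooth muscle, fibroblasts, macrophages, Schwann cells and satellite cells had no gene at 0, and each of these 7 lists summed to between 11.02 and 1259 CPM in every library. Adipocyte markers summed to 427, 281 and 321 CPM, with 4 of 7 lower and 1 (Lep) higher in aged control by the threshold against young, and all 7 were above aged control in aged EPA, 2 of them by the threshold. Endothelial markers summed to 348, 279 and 268 CPM, with 3 of 5 lower in aged control by the threshold. Of 4 fibroblast markers, Col1a1 and Col3a1 were lower by the threshold in each comparison. The part of these cell types in the values of the enzymes was not tested.

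Among the 5 genes whose pattern over the 3 libraries lay nearest the median pattern of the members were Mapkapk2, Cltc, Plpp3 and Got1, with distances between 0.026 and 0.030 (centred log2 values of CPM + 1, 3 libraries). Of 1041 candidate genes at 100 CPM or more on average, 311 lay within a distance of 0.1, so the near-level median pattern was common among abundant genes. Single members departed from that median. The highest-to-lowest ratio was above that of 98.7% of the genes at 100 CPM or more for Gapdh and 72.4% for Eno3. For Pfkm, Hk2 and Pgam2 the share was 71.7%, 65.7% and 63.4%. It was 44.2% or less for Gpi1, Aldoa, Tpi1, Pgk1 and Ldha.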

How the data were processed

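RNA of 3 pooled libraries was sequenced. Per the submitters' processing notes, HISAT2 2.1.0, StringTie 1.3.4d and R 3.5.0 were used with build GRCm38. Values are CPM per gene as the authors deposited them. Each value was made with 1 of 5 divisors, which could differ between the libraries for the same gene and so do not cancel in ratios. Whole counts were recovered from these divisors (largest distance 3.0268e-09). Deposited values differ by up to 2.98% from values scaled to the library's total. Changes are log2 ratios of CPM + 1. Python 3.11.15 with scipy 1.17.1 was used, and the calculation was tested on simulated data. There each gene had the same divisor in all libraries, so the simulation did not cover divisors that differ between libraries. Pseudogene copies were found with BLAST 2.17.0 in GENCODE M21, whose identifiers matched 42170 of 42258 rows. The members and the 20 lists were chosen with earlier results of these data known. All members are named. Of the lists, genes at 1 CPM or more on average could be named, those beyond the threshold first, with the 5 genes most like the members. Some genes that this rule covers are not reported here. Alternatives were other pseudocounts (0.1 and 5), filters, scalings (a trimmed mean of ratios, TMM, computed directly), trends and folds. Another 2 were added after the data were seen: the copies' rows added, and the GC trend subtracted.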

Additional observations from a re-analysis of the deposited data

How the results depend on the processing

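The median log2 change of the members moved by little in size but often relative to its value near 0. In aged control against young it was 0.034 with TMM scaling, 0.062 with the length trend subtracted and 0.018 with the GC trend subtracted. In aged EPA against aged control it was 0.034 with median of ratios scaling, 0.058 with TMM and 0.074 with counts over each library's own total. In aged EPA against young it was 0.00020 with median of ratios scaling, 0.020 with TMM, 0.015 with own totals, 0.00012 with the length trend subtracted, 0.0086 with pseudogene rows added and -0.0050 with the GC trend subtracted. Members past the threshold of 25% higher in aged EPA against young numbered 1 with median of ratios scaling, with TMM and with the length trend subtracted, in each case Eno3 (0.32, 0.32 and 0.33). The number lower was 0 with pseudogene rows added in all 3 comparisons, 0 at 2-fold in aged control against young, and 0 at 1.5-fold and 2-fold in aged EPA against aged control. With pseudogene rows added, the Gapdh change reversed to 0.15 in aged EPA against aged control and to 0.021 in aged EPA against young. Of all genes compared, 2537, 1655 and 2481 lay beyond the threshold in the 3 comparisons, against 1186, 680 and 1150 with a pseudocount of 5 and 3201, 2327 and 3132 with one of 0.1.

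No paired analysis was possible because each group is 1 library. Without replicates, no difference here has an error between mice, and counting intervals cover depth only. The comparisons with young also differ in strain label. Copies of Gapdh and Pgk1 limit how far their single rows can be read.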
